A study of Nicotiana tabacum with 78 samples.

Results

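Untopped roots of PMT2 and PMT3, a pair of tobacco lines that carry the same kind of silencing construct, were compared gene by gene. A gene was compared where the group-mean RPKM (reads on a gene, scaled by its length and by all mapped reads of the library) was at least 1 in either line. This held for 1996 of the 2075 genes in the deposited expression table. The difference was taken as log2((PMT2 + 0.1)/(PMT3 + 0.1)), and a gene is called higher or lower in PMT2 where this ratio reached 2-fold. At the edge of the minimum, NITAB035074 was kept with 1.00 RPKM in PMT3 and 0.187 in PMT2, and NITAB004676 was left out with 0.997 in PMT2 and 0.192 in PMT3.

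The series holds 78 samples of leaves and roots of Nicotiana tabacum. TN90 is an untransformed Burley cultivar, and PMT1, PMT2 and PMT3 are 3 TN90-derived lines in which RNAi, driven by the constitutive 35S promoter, silences putrescine N-methyltransferase (PMT). At flowering, some plants of each genotype lost the top of the shoot (topping), and leaves and roots of topped and untopped plants were then collected. The sources used here do not give the insertion of each line, so differences between lines cannot be told apart from effects of where a construct lies. The labels give 5 samples of untopped PMT2 roots and 4 of untopped PMT3 roots. All 4 PMT3 samples and 1 of the 5 PMT2 samples are titled root but tagged leaf, and the titles were followed. For 2 of the 5 PMT2 plants and 1 of the 4 PMT3 plants, the leaf sample of the same plant is labelled topped while the root is labelled untopped. The expression table names no single plant, so no gene value below can be given without these plants.

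Each gene value is the authors' mean over the libraries of a group. The table used here holds no spread over libraries, so no standard deviation and no test across libraries was computed for a gene, and a 2-fold difference below is a size, not a significance. The 2075 genes are those the study called in roots when topped plants were compared with untopped ones or PMT lines with TN90. Comparisons of one PMT line with another were not used to choose them, but the untopped PMT2 and PMT3 libraries entered other comparisons that were.

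In tobacco, nicotine is made in the roots and carried to the leaves, and removal of the flowering top is a known inducer of the pathway. PMT methylates putrescine and so commits it to the pyrrolidine ring. Methylputrescine oxidase (MPO) then makes the precursor that closes into that ring. The pyridine ring comes from aspartate through aspartate oxidase (AO), quinolinate synthase (QS) and quinolinate phosphoribosyltransferase (QPT). A622 and the berberine bridge enzyme-like (BBL) proteins act in the last steps that join the rings, and in PMT-silenced plants the pyridine branch can still feed anatabine.

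The leading example of the pathway in this comparison is MPO, for which a pair of coding sequences is known. NITAB041830 was assigned to the copy named MPO-S and NITAB056529 to the copy named MPO-T. Both sequences are shown over 90 bases of the coding region, in the window of the alignment with the most differences, because reads can be shared between copies as alike as these. Bases in capitals differ between the copies.
MPO-S (NITAB041830), coding bases 151 to 240: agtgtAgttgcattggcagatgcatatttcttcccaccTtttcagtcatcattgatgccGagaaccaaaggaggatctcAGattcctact
MPO-T (NITAB056529), coding bases 394 to 483: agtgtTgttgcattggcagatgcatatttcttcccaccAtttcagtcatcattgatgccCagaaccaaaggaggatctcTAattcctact
The window holds 5 differences. The coding sequence of MPO-T has 243 bases before the start of MPO-S, and over the 2118 bases that follow the copies were 98.1% identical. The AO copies of the study's sequence listing were 97.7% identical over 1947 bases and the QPT copies 98.3% over 1053 bases. The authors kept reads at a similarity of at least 0.95 with up to 10 hits per read, so values of such gene pairs are not independent.

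Of the 1996 genes, 852 were higher in PMT2 (42.7%) and 182 were lower (9.12%), while 962 were within 2-fold. The median log2 ratio was 0.77, a 1.70-fold higher level in PMT2, with quartiles of -0.23 and 1.53. With a threshold of 4-fold, 228 genes were higher and 42 lower. The shift of the median sets much of this split. When each ratio was taken relative to it, 353 genes were higher and 500 lower, and the share of higher genes among those called went from 82.4% to 41.4%. The longer lists below are therefore given both ways, with ratios relative to the median of all genes called centred. In bulk roots, more cells of a type and more RNA per cell cannot be told apart.

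**Figure D1:**
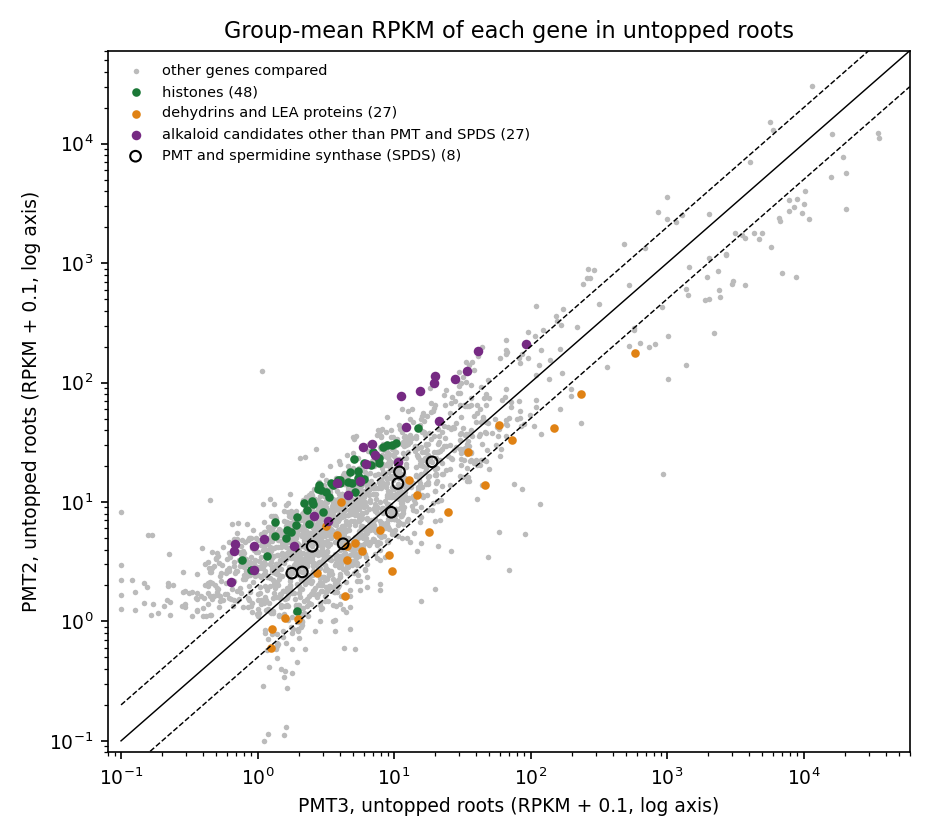
Group-mean RPKM plus 0.1 of each of the 1996 genes in untopped roots of PMT3 (x axis) and PMT2 (y axis), on log axes. The solid line marks equal levels and the dashed lines 2-fold. The 27 alkaloid candidates other than PMT and spermidine synthase and 47 of 48 histone genes lie above the upper dashed line, and 11 of 27 dehydrin and late embryogenesis abundant (LEA) genes lie below the lower one.

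The difference depended on the level of the gene. For the 798 genes with a mean of 3 to 10 RPKM, the median log2 ratio was 0.87, with 353 higher and 27 lower. For the 57 genes with a mean of 100 to 1000 RPKM it was 0.54, but 20 were lower (35.1%) beside 22 higher. For the 51 features with a mean of at least 1000 RPKM it was -1.47, with 6 higher and 36 lower in PMT2. These 51 summed to 193032 RPKM in PMT2 and 365650 in PMT3, against 217487 in untopped TN90, 270659 in untopped PMT1 and 225034 in topped PMT3. Since RPKM is relative to all mapped reads, a larger share of reads on a few features lowers the RPKM of all others. The part of this in the median of 0.80 of the other 1945 genes was not tested.

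**Figure D2:**
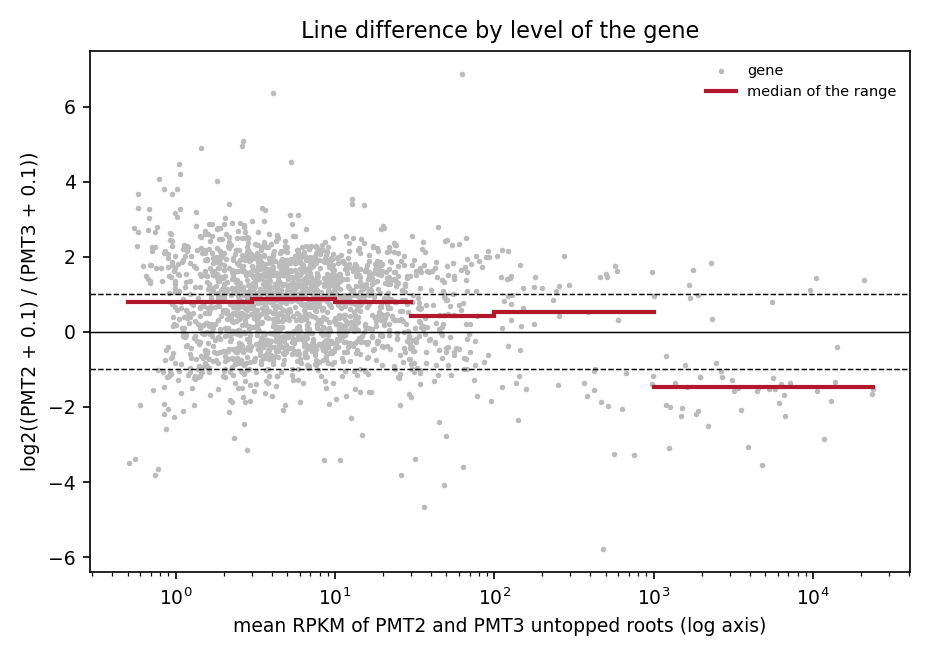
Log2 ratio of PMT2 to PMT3 in untopped roots (y axis) against the mean RPKM of both lines (x axis, log scale) for each of the 1996 genes. Red bars are medians over ranges of level. They lie between 0.42 and 0.87 below 1000 RPKM and at -1.47 above it.

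In the libraries listed for these groups, reads ranged from 28573994 to 138184962 in PMT2 and from 46263376 to 150334394 in PMT3. On average 84.3% ± 2.71 of reads mapped in PMT2 (SD, n = 5) and 82.4% ± 2.66 in PMT3 (SD, n = 4), a difference within the spread (two-sided exact permutation test, p = 0.27, adjusted p = 0.27). Of the mapped reads, 85.3% ± 5.36 fell in gene models in PMT2 and 92.4% ± 4.73 in PMT3 (two-sided exact permutation test, p = 0.11, adjusted p = 0.21 over 3 measures). On the log10 scale the mean read count was 7.68 ± 0.271 in PMT2 and 8.00 ± 0.227 in PMT3 (two-sided exact permutation test, p = 0.14, adjusted p = 0.21). The smallest p that 5 against 4 libraries allow is 0.016. Both groups carried root transcripts. The 5 genes named as the root aquaporin RB7 summed to 76.9 RPKM in PMT2 and 51.8 in PMT3, against at most 1.69 in any leaf group. The 16 photosynthesis genes summed to 203 RPKM in PMT2 and 170 in PMT3, against at least 3188 in any leaf group. Gene by gene, 11 of the 16 were below every leaf group in both lines, and 4 were above every leaf group.

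The silenced gene itself differed little between the lines. None of the 5 PMT genes, and none of the 3 spermidine synthase (SPDS) genes whose enzyme shares the substrate putrescine, was 2-fold apart. NITAB020971, the most abundant PMT gene in PMT2, had 17.8 RPKM in PMT2 and 10.9 in PMT3. NITAB020972 had 2.43 and 1.68 RPKM, and NITAB068130 had 4.16 and 2.41. NITAB068134 was at 4.37 and 4.14 RPKM, and NITAB068133 was at 8.10 in PMT2 and 9.44 in PMT3. The median log2 ratio of the 5 genes was 0.51, which is -0.26 relative to the median of all genes, and centring turned 4 of the 5 genes and all 3 SPDS genes from above to below 0. All 5 were below untopped TN90 in both lines: TN90 had 36.5, 5.54, 5.89, 13.9 and 29.0 RPKM in the order given. NITAB068133 was unlike the others in leaves. Untopped leaves had 8.10 RPKM of it in PMT2, 5.56 in PMT3 and 2.05 in PMT1, against 0.227 in TN90. The other PMT genes had at most 0.419 RPKM in any leaf group. What NITAB068133 reads stand for in the PMT lines was not tested.

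Among SPDS genes, NITAB055952 had 21.6 RPKM in PMT2 and 18.9 in PMT3, NITAB041017 had 14.2 and 10.6, and NITAB026467 had 2.50 and 2.03. All 6 values were below those of untopped TN90, which had 37.4, 20.3 and 3.65 RPKM.

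All the other alkaloid candidates were higher in PMT2. They numbered 27, from 2.04-fold for the ornithine decarboxylase (ODC) gene NITAB012942 to 6.91-fold for the A622 gene NITAB013664. Over all 35 candidates, 27 were higher and 0 lower, where the table as a whole had 42.7% higher, and the median log2 ratio was 1.74. Relative to the median of all genes, 16 of 35 were still higher and 0 lower. The study named these candidates from comparisons in which libraries of both lines took part, so the list is not independent of them.

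Upstream of PMT, ODC makes putrescine from ornithine. NITAB023946 had 42.1 RPKM in PMT2 and 12.2 in PMT3, and NITAB012942 had 21.6 and 10.5. Only the former kept a 2-fold difference relative to the median of all genes. The S-adenosylmethionine synthase genes, which supply the methyl donor, were at 211 and 93.3 RPKM for NITAB038231 and at 47.6 and 21.1 for NITAB004477. Both ratios of 1.17 on the log2 scale fell under 2-fold relative to the median.

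Downstream of PMT, all 3 genes of the MPO family were higher. NITAB041830 (MPO-S) had 30.5 RPKM in PMT2 and 6.78 in PMT3, a 4.45-fold difference. NITAB056529 (MPO-T) had 20.8 and 6.14 RPKM, and NITAB056530, which carries the next identifier, had 24.6 and 7.12. Untopped TN90 was at 10.1, 8.28 and 8.66 RPKM for these genes. The PMT3 values were thus below TN90 and the PMT2 values above it.

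In the pyridine branch the differences were among the larger ones of the pathway. The AO gene NITAB079852 had 113 RPKM in PMT2 and 20.0 in PMT3, and its partner NITAB045325 had 99.9 and 19.5 (the deposited annotation names both after a succinate dehydrogenase flavoprotein, and the study lists them as AO). QPT, NITAB041007, had 184 RPKM in PMT2 and 40.8 in PMT3, or 4.49-fold. The QS genes NITAB063722 and NITAB074182 had 126 and 107 RPKM in PMT2 against 34.0 and 27.8 in PMT3. Asparaginase, which releases aspartate, was at 4.78 and 1.02 RPKM for NITAB023723 and at 6.90 and 3.16 for NITAB013732. All 5 genes of AO, QS and QPT remained 2-fold higher relative to the median of all genes.

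In the final steps, an A622 gene gave the largest ratio of the 35 candidates. NITAB013664 had 77.6 RPKM in PMT2 and 11.2 in PMT3, and NITAB026459 had 85.0 and 15.5. The 4 BBL genes were 2.52- to 4.90-fold higher in PMT2. The most abundant, NITAB049634, had 28.9 RPKM in PMT2 and 5.82 in PMT3. The 6 cytochrome P450 candidates, whose role in the pathway the labels do not give, were 2.88- to 6.49-fold higher, and the polyamine transporter PUT1 gene NITAB002823 had 4.22 and 1.76 RPKM.

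**Figure D3:**
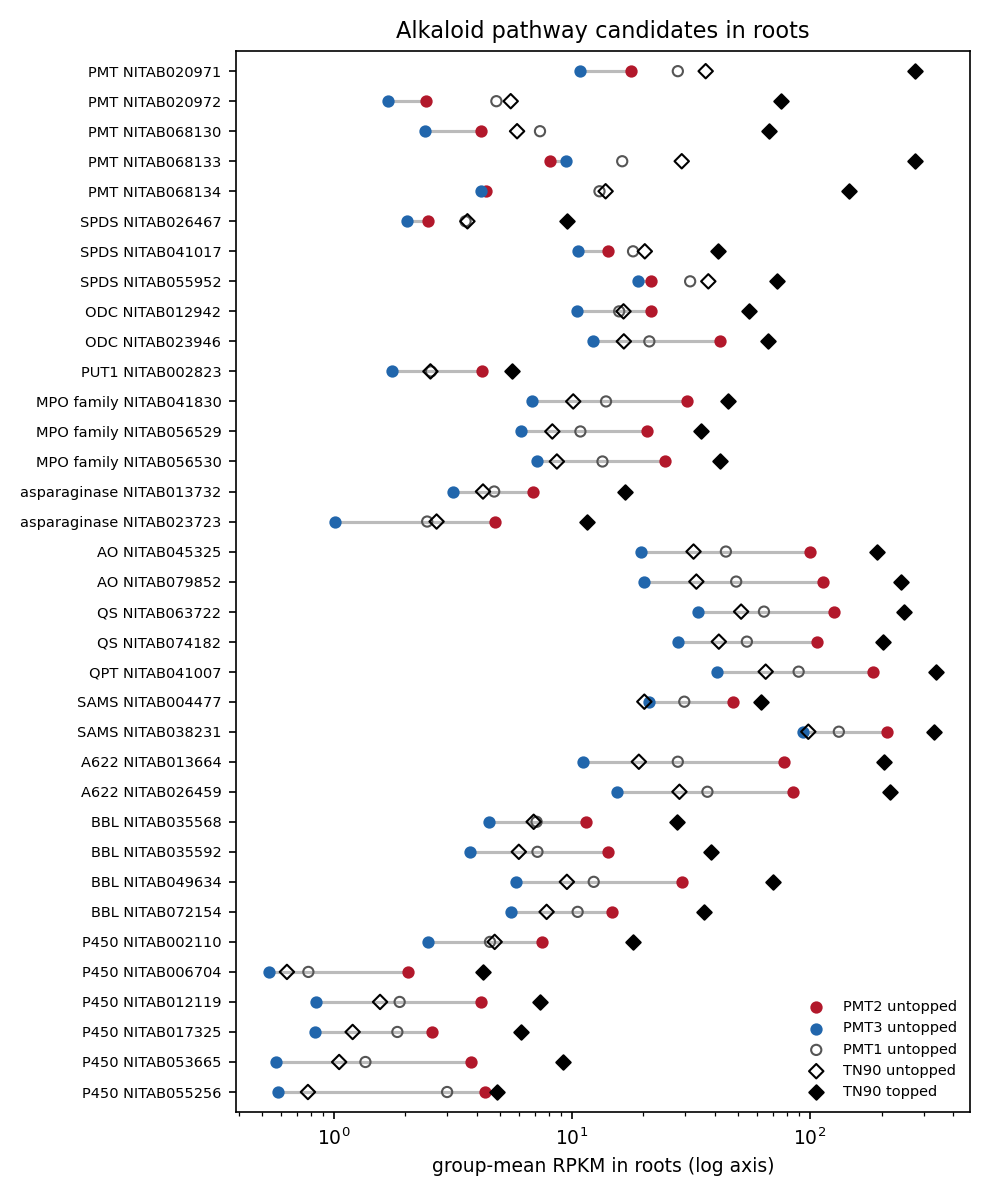
Group-mean RPKM (x axis, log scale) of the 35 alkaloid candidates in untopped roots of PMT2, PMT3, PMT1 and TN90 and in topped roots of TN90. A grey line joins PMT2 and PMT3. In 27 of 35 genes PMT2 lies between untopped and topped TN90, and in 34 of 35 PMT3 lies below untopped TN90.

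Set beside TN90, the 2 lines stood on opposite sides. PMT2 was above untopped TN90 in 27 of the 35 candidates and below topped TN90 in all 35. PMT3 was below untopped TN90 in 34 of 35 and was the lowest of the 4 untopped groups in 33. PMT2 was the highest of the 4 untopped groups in 27. For the A622 gene NITAB013664, the untopped levels were 11.2 RPKM in PMT3, 19.1 in TN90, 27.9 in PMT1 and 77.6 in PMT2, and topped TN90 had 206. Over all 1996 genes the same held in weaker form. The median log2 difference from untopped TN90 was 0.75 in PMT2, -0.17 in PMT3 and 0.31 in PMT1, 3 values that share the TN90 group. Of the 852 genes higher in PMT2 than in PMT3, 655 were also at least 2-fold above untopped TN90 in PMT2, where 798 of all 1996 were. In PMT3, 98 of the 852 were at least 2-fold below untopped TN90, where 170 of all 1996 were. The 852 were chosen by the same PMT2 and PMT3 values, so these counts are no separate support.

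These 852 genes can be read against topping in TN90, since those libraries are in neither PMT2 nor PMT3. In TN90, 915 of the 1996 genes were at least 2-fold higher after topping and 122 lower. Of the 852 genes higher in PMT2, 675 were in the first group and 6 in the second. Of the 182 genes lower in PMT2, 31 and 77 were. Across the 1996 genes, the log2 ratio of untopped PMT2 to PMT3 and that of topped to untopped TN90 had a Pearson's r of 0.57 and a Spearman's rho of 0.69. For topping in PMT1 the values were 0.51 and 0.60. Genes are not independent replicates, all ratios come from one table chosen for topping and line differences, and each group carries its own share of reads on abundant features. The treatment labels that differ between leaf and root of 2 PMT2 plants and 1 PMT3 plant bear on this likeness, and their part in it was not tested.

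Genes near the A622 genes by identifier also ranked high. The DETOXIFICATION 38 genes, named after MATE-type efflux carriers, had 35.1 RPKM in PMT2 and 4.91 in PMT3 for NITAB013665 and 39.4 and 7.84 for NITAB026456. Of 12 genes grouped under the DETOXIFICATION name, 7 were higher and 1 lower, where all genes had 42.7% higher and 9.12% lower. Their median log2 ratio was 1.11. The lower one, NITAB013139, is named as a heavy metal-associated protein. NITAB013665 follows the A622 gene NITAB013664 in the numbering. All 4 genes named beta-glucosidase 47 were higher, by 2.08 to 3.11 on the log2 scale. They were picked after their values were seen.

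Histone genes were higher in PMT2 almost throughout. They encode the proteins that package DNA and are made mainly while cells replicate it. Of 48 genes, 47 were higher in PMT2 and 0 lower, against 42.7% and 9.12% of all genes, with a median log2 ratio of 1.76. All 14 histone H3 genes were higher, with 3.20 to 29.0 RPKM in PMT2 and 0.669 to 8.18 in PMT3. All 13 H4 genes, all 7 H2A genes and all 3 H1 genes were higher too, and so were 10 of 11 H2B genes. The remaining H2B gene, NITAB081670, had 1.12 RPKM in PMT2 and 1.86 in PMT3. By size, H4 NITAB015404 led with 6.74 RPKM in PMT2 and 1.25 in PMT3, and H3.2 NITAB045025 followed with 13.9 and 2.70. On the centred scale, 24 of 48 remained higher and 1 was lower. Reads may be shared among these near-identical genes.

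Of 21 genes for tubulins, kinesins, cyclins and related proteins, 7 were higher (33.3%, against 42.7% of all genes) and 0 lower, with a median log2 ratio of 0.73. None was 2-fold apart after centring. DNA topoisomerase 2, which untangles replicated DNA, had 6.12 RPKM in PMT2 and 2.09 in PMT3 (NITAB049199). A tubulin beta-1 chain had 13.8 and 5.16 RPKM (NITAB056399).

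Genes that loosen the wall or modify pectin were higher in PMT2 in 55 of 67 cases (82.1%, against 42.7% of all genes). They were lower in 1, with a median log2 ratio of 1.79. Relative to the median of all genes the counts were 34 and 1. They included 12 of 14 expansins, which loosen the growing wall, all 7 xyloglucan endotransglucosylases and 10 of 11 polygalacturonases. Expansin-B6, NITAB065366, had 9.48 RPKM in PMT2 and 1.00 in PMT3, and a pectinesterase inhibitor, NITAB048484, had 3.40 and 0.417. The polygalacturonase NITAB014993 had 20.0 and 3.32 RPKM. The exception was an expansin-like B1 gene, NITAB000396, with 18.8 RPKM in PMT2 and 49.7 in PMT3.

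Extensins and arabinogalactan proteins, structural glycoproteins of the wall, were higher in 19 of 23 cases (82.6%, against 42.7% of all genes). None was lower, and the median log2 ratio was 1.86. After centring, 12 remained higher. An arabinogalactan peptide, NITAB029891, had 2.42 RPKM in PMT2 and 0.260 in PMT3, and the leucine-rich repeat extensin NITAB056950 had 3.80 and 0.681.

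Secondary wall and lignin genes were mostly within 2-fold. Of 42 genes for cellulose and xylan of the secondary wall, 8 were higher (19.0%, against 42.7% of all genes) and 0 lower. Their median log2 ratio was 0.48, which is -0.29 relative to the median of all genes. Of 26 lignin and laccase genes, 7 were higher (26.9%) and 1 lower (3.85%), with a median of 0.30, or -0.47 relative to that of all genes. Relative to it, 0 lignin genes were higher and 7 lower. A cinnamoyl-CoA reductase of lignin synthesis, NITAB023909, had 24.6 RPKM in PMT2 and 8.12 in PMT3. The lower one, NITAB054890, is annotated as phenylalanine ammonia-lyase and is one of the features above 1000 RPKM, with 2241 RPKM in PMT2 and 6675 in PMT3.

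Class III peroxidases, secreted enzymes that crosslink or loosen wall polymers, were higher in 15 of 23 cases (65.2%, against 42.7% of all genes). None was lower, and the median log2 ratio was 2.00. Cationic peroxidase 2, NITAB034751, had 11.6 RPKM in PMT2 and 1.64 in PMT3, and peroxidase 49, NITAB038313, had 2.70 and 0.363. After centring, 12 were higher and 4 lower.

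**Figure D4:**
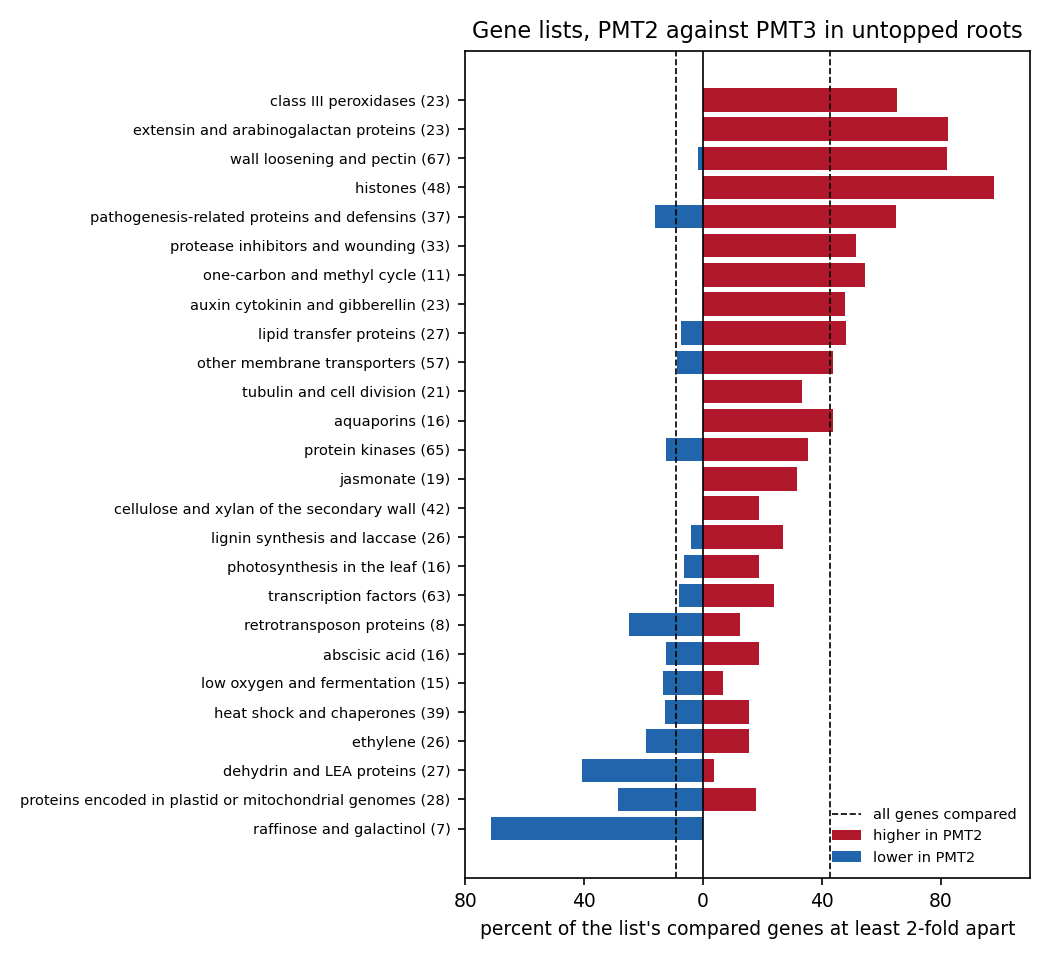
Percent of the compared genes of each list with at least 7 of them, other than all cytochrome P450 genes, that were at least 2-fold higher (red, to the right) or lower (blue, to the left) in untopped roots of PMT2 than of PMT3, with the number of genes in brackets. Dashed lines mark the 42.7% and 9.12% of all 1996 genes. Of the lists drawn, histones, extensins and wall loosening genes reach furthest to the right, and galactinol and dehydrin genes furthest to the left.

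Among defence genes, 24 of 37 pathogenesis-related and defensin genes were higher (64.9%) and 6 lower (16.2%), against 42.7% and 9.12% of all genes. Defensin-like protein 3 genes, which encode small antimicrobial peptides, had 40.5 RPKM in PMT2 and 8.02 in PMT3 (NITAB031973) and 3.23 and 0.396 (NITAB084771). A PR-1 gene, NITAB084573, had 4.78 and 0.605 RPKM. Of the 6 lower genes, 4 are features above 1000 RPKM. They are 3 genes annotated as glucan endo-1,3-beta-glucosidases (NITAB095090, NITAB096457 and NITAB097762) and NITAB095299, which carries a plastid subunit as its other annotation. NITAB095090, for one, had 4020 RPKM in PMT2 and 10239 in PMT3. On the centred scale, 10 genes of the list were higher and 8 lower. Of 33 protease inhibitor and wound genes, 17 were higher (51.5%, against 42.7% of all genes) and 0 lower, or 5 and 0 after centring. The latex serine proteinase inhibitor NITAB022149 had 4.07 and 0.462 RPKM.

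Among the lists with more lower than higher genes were those of protection against water loss. Dehydrins and LEA proteins accumulate in drying seeds and in tissue short of water. Of 27 such genes, 11 were lower in PMT2 and 1 higher, with a median log2 ratio of -0.58, where all genes had 9.12% lower. Relative to the median of all genes, 20 were lower and 0 higher. The dehydrin DHN1 gene NITAB060787 had 41.4 RPKM in PMT2 and 148 in PMT3. The gene named after TAS14, NITAB061183, had 178 and 582 RPKM, and a second one, NITAB098393, had 80.6 and 233. The LEA gene Dc3, NITAB063639, had 13.9 and 46.1 RPKM. Untopped TN90 was closer to PMT3 for these genes, with 109, 583, 230 and 44.9 RPKM.

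All 7 genes of raffinose and galactinol synthesis, which makes protective sugars, were below 0 on the log2 scale. Of these, 5 were at least 2-fold lower in PMT2 (71.4%, against 9.12% of all genes). Galactinol synthase 2, the first enzyme of the route, was at 42.9 RPKM in PMT2 and 105 in PMT3 for NITAB059493. It was at 1.75 and 7.73 RPKM for NITAB060801 and at 1.84 and 6.23 for NITAB098257. A galactinol--sucrose galactosyltransferase, NITAB087613, had 14.9 and 35.2 RPKM. After centring all 7 were at least 2-fold lower, and in topped roots 4 of the 7 were lower in PMT2.

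Heat shock and chaperone genes had a median log2 ratio of -0.45, with 6 of 39 higher (15.4%) and 5 lower (12.8%). Of all genes, 42.7% were higher and 9.12% lower. Centred, 1 was higher and 27 lower, against 353 and 500 of all 1996 genes. A class I heat shock protein gene, NITAB028253, had 0.501 RPKM in PMT2 and 4.17 in PMT3, but in topped roots it had 7.47 and 2.88. A DnaJ gene, NITAB045393, went the other way in untopped roots, with 13.2 and 2.85 RPKM.

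Hormone lists were mixed. Ethylene genes were higher in 4 of 26 cases (15.4%) and lower in 5 (19.2%), against 42.7% and 9.12% of all genes. Relative to the median the counts were 0 and 18. Of the 5 lower ones, 3 are annotated as ERF094, a transcription factor of the ethylene response family. They include NITAB076191, with 0.728 RPKM in PMT2 and 2.55 in PMT3, and NITAB035074, the gene at the edge of the RPKM minimum. Genes named ethylene-responsive transcription factor 2 were higher for NITAB077921, with 5.13 and 1.46 RPKM, and for NITAB035781, with 1.56 and 0.414, but lower for NITAB068640, with 0.476 and 1.07. Of 19 genes of jasmonate, a wound hormone, 6 were higher (31.6%, below the 42.7% of all genes) and 0 lower, or 3 and 1 after centring. Allene oxide synthase 3, of its synthesis route, had 6.16 RPKM in PMT2 and 1.51 in PMT3 (NITAB098766). The higher jasmonate genes also include NITAB012119 and NITAB006704, named cytochrome P450 94C1, which were already counted among the P450 candidates above.

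Of 23 auxin, cytokinin and gibberellin genes, 11 were higher (47.8%, near the 42.7% of all genes) and 0 lower, or 4 and 4 after centring. The GH3.5 gene NITAB057793, which conjugates auxin to amino acids, had 6.35 RPKM in PMT2 and 1.63 in PMT3, and RSI-1, NITAB008052, had 111 and 31.8. Of 16 abscisic acid genes, 3 were higher (18.8%) and 2 lower (12.5%), against 42.7% and 9.12% of all genes, or 2 and 8 after centring. The higher ones named include protein phosphatases 2C, NITAB053856 with 7.47 and 1.16 RPKM and NITAB076995 with 1.91 and 0.142, and the lower ones are both TAS14 genes above.

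Transcription factors and kinases were near or below the share of all genes. Of 63 transcription factor genes, 15 were higher (23.8%) and 5 lower (7.94%), against 42.7% and 9.12% of all genes. Their median log2 ratio was -0.11, or -0.88 relative to the median of all genes. After centring the counts were 4 and 28. WRKY transcription factor 13 was at 3.61 RPKM in PMT2 and 0.698 in PMT3 for NITAB017181 and at 4.63 and 1.19 for NITAB011507. Of 65 genes listed as kinases by annotation terms, 23 were higher (35.4%) and 8 lower (12.3%). Centring reversed this balance to 5 and 20. Not all of the 8 are named as protein kinases. Their names include a heat shock protein (NITAB011194), an RNA polymerase subunit (NITAB037934) and pyruvate kinase (NITAB068997). NITAB056273 and NITAB093170 are named after phosphatidylinositol phosphate kinases. The receptor kinase gene NITAB067928, annotated as MIK1, had 27.9 and 2.59 RPKM.

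Among transport genes, 7 of 16 aquaporins were higher and 0 lower, and 25 of 57 other membrane transporters were higher and 5 lower, with shares of 43.8% and 43.9% higher, near the 42.7% of all genes. After centring, 1 aquaporin was higher and 3 were lower, and of the transporters 13 were higher and 15 lower. The PIP2-4 water channel gene NITAB058321 had 82.2 RPKM in PMT2 and 29.4 in PMT3. Of 27 lipid transfer protein genes, 13 were higher (48.1%) and 2 lower (7.41%), or 9 and 7 after centring. One of them, NITAB057241, had 43.8 and 10.7 RPKM. One-carbon and methyl cycle genes were higher in 6 of 11 cases (54.5%) and lower in none, and 0 of 11 were 2-fold apart relative to the median.

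For low-oxygen and fermentation genes the counts were 1 higher (6.67%) and 2 lower (13.3%) of 15, or 0 and 10 after centring. Both lower ones encode alcohol dehydrogenases, the last enzyme of ethanol fermentation. NITAB069586 had 1.22 RPKM in PMT2 and 4.66 in PMT3, and NITAB012452 had 5.11 and 10.5. Of 28 genes annotated with proteins of plastid or mitochondrial genomes, 5 were higher (17.9%) and 8 lower (28.6%), against 42.7% and 9.12% of all genes, with a median log2 ratio of -0.61, or 2 and 16 after centring. Of 16 photosynthesis genes, 3 were higher (18.8%) and 1 lower (6.25%), or 2 and 4 after centring. The lower gene NITAB010977 and the higher genes NITAB094976 and NITAB097766 had at most 0.122 RPKM in any leaf group. Of 8 genes listed as retrotransposons by annotation terms, 1 was higher and 2 lower, or 1 and 4 after centring. Of the lower ones, NITAB042152 is named as a CACTA transposon, not as a retrotransposon. The other, NITAB001468, is listed at 0 RPKM in PMT2 and had 1.02 in PMT3. In topped roots it went the other way, with 1.78 RPKM in PMT2 and 0.111 in PMT3. Over all 23 cytochrome P450 genes, candidates included, 13 were higher (56.5%) and 1 lower (4.35%), or 7 and 5 after centring.

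The largest single differences were of another kind. NITAB036511, named trichome birefringence-like 15 after a family that acetylates wall polymers, had 125 RPKM in PMT2 and 0.980 in PMT3. In the other root groups it had 300 RPKM in untopped PMT1 but 1.05 in topped PMT1. It had 12.3 RPKM in untopped TN90, 2.94 in topped TN90, 185 in topped PMT2 and 57.1 in topped PMT3. NITAB089169 had 8.13 RPKM in untopped PMT2 roots and is listed at 0 in untopped PMT3, PMT1 and TN90 roots and in topped PMT2 roots. With group means only, whether 1 library carries such a value could not be checked. The subtilisin protease gene NITAB013691 had 10.3 RPKM in PMT2 and 0.350 in PMT3. The U-box gene NITAB068620 had 23.6 and 2.14 RPKM, and the unannotated NITAB091106 and NITAB089016 had 23.5 and 1.94 and 6.38 and 0.553. The TRAF-like gene NITAB067738, with 6.63 and 0.615 RPKM, closed the 10 highest.

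At the other end, the 10 lowest ratios were mostly of features that were far higher in untopped than in topped PMT3. NITAB029802, annotated as a P-loop hydrolase, had 17.1 RPKM in PMT2 and 939 in PMT3, but 29.4 in topped PMT3, 30.7 in untopped TN90 and 108 in untopped PMT1. Likewise, a poly(ADP-ribose) polymerase gene, NITAB088510, had 5.31 RPKM in PMT2, 91.0 in untopped PMT3 and 6.22 in topped PMT3. An arogenate dehydratase 6 gene, NITAB095688, had 3.39, 48.8 and 3.70 RPKM in the same groups, and the unannotated NITAB019054 had 2.62, 69.4 and 3.56. NITAB000512 had 758 RPKM in PMT2, 8820 in untopped PMT3 and 1232 in topped PMT3, with 4072 in untopped PMT1, and NITAB097635, annotated as the SUMO ligase SIZ1, had 141, 1370 and 153. For NITAB003822 the values were 5.53, 58.4 and 4.08 RPKM, for NITAB053434 they were 1.77, 19.9 and 0.954, and for NITAB029485 they were 9.57, 117 and 19.7. Only NITAB042152, annotated as a CACTA transposon, was high in both PMT3 root groups, with 15.8 RPKM untopped and 20.3 topped against 1.38 and 0.151 in PMT2. Untopped TN90 and PMT1 had 8.41 and 22.9 RPKM of it. In all of the 10 but NITAB029485, untopped PMT1 was also above untopped PMT2. All but NITAB042152 were higher in topped than in untopped TN90 roots, by 1.10 to 3.07 on the log2 scale. NITAB003822, for one, went from 2.84 to 24.6 RPKM in TN90. They are thus among the 31 genes lower in PMT2 that were at least 2-fold higher after topping in TN90.

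The features above 1000 RPKM were compared in the same way. Of the 36 that were lower in PMT2, 31 had a level in topped PMT3 within 2-fold of that in untopped PMT2. In untopped roots, 14 were also at least 2-fold higher in PMT3 than in TN90, and 11 at least 2-fold lower in PMT2 than in TN90. The 36 were themselves chosen by these PMT2 and PMT3 values. The most abundant, NITAB099302, had 12238 RPKM in PMT2, 34945 in PMT3, 24003 in untopped TN90 and 21022 in topped PMT3. A few went the other way, among them NITAB041930 with 30310 RPKM in PMT2 and 11537 in PMT3. Both were named after their values were seen. Of the 51 features, 41 had no Swiss-Prot name, and 32 had no name of either source.

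The same line contrast was read in other libraries. In both lines, the topped roots and both leaf groups also include plants whose leaf and root carry different treatment labels. The part of these plants in the contrasts below was not tested. In topped roots, 530 of 2018 genes were higher in PMT2 (26.3%) and 130 lower (6.44%), with a median log2 ratio of 0.45. Of the 852 genes higher in untopped roots, 463 were higher there too, which is 54.3% of the 852 and 87.4% of the 530, and 12 were lower. Of the 182 lower genes, 51 were lower there, 28.0% of the 182 and 39.2% of the 130, and 7 were higher. The gene lists kept their order in part. In topped roots, 41 of 48 histone genes and 38 of 67 wall loosening genes were higher, and 8 of 27 dehydrin and LEA genes were lower. Of the 35 alkaloid candidates, 13 were higher and 0 lower there, against 27 and 0 in untopped roots, where all genes in topped roots had 26.3% higher. Their median log2 ratio was 0.82, above the 0.45 of all genes. For A622 NITAB013664 the topped levels were 299 RPKM in PMT2 and 132 in PMT3.

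In leaves the lines differed in other proportions. In untopped leaves, 90 of 936 genes were higher in PMT2 (9.62%) and 133 lower (14.2%). In topped leaves, 105 of 963 were higher (10.9%) and 148 lower (15.4%). Of the 182 genes lower in untopped PMT2 roots, 74 were lower in topped leaves as well, which is 40.7% of the 182 and 50.0% of the 148. Of the 852 higher genes, 83 were higher in topped leaves, 9.74% of the 852 and 79.0% of the 105. Only 327 of the 852 and 127 of the 182 reached the RPKM minimum in topped leaves. The rest could not be called there, so the shares of 9.74% and 40.7% are not comparable with those of all leaf genes. The median log2 ratio over all genes was -0.10 in untopped and -0.04 in topped leaves, so the shift seen in roots was not seen in leaves.

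Across both tissues and treatments, 76 genes were at least 2-fold apart the same way, 59 higher and 17 lower in PMT2. These counts asked for 1 RPKM in the untopped roots only. With 1 RPKM in either line in every pair they were 29 and 14, and with each pair centred on its own median they were 25 and 25. Of the 59, 11 are histone genes, but only 1 of these 11 met the minimum in every pair. Several were nearly absent from one line. NITAB032129, which has no annotation, had 5.15 and 0.0699 RPKM in untopped roots, 5.29 and 0.0828 in topped roots, 3.39 and 0.0601 in untopped leaves and 4.35 and 0.0530 in topped leaves of PMT2 and PMT3. Untopped TN90 roots had 0.274 RPKM. NITAB079153, annotated as MAIN-LIKE 2, had 5.21 RPKM in PMT2 and 0.0582 in PMT3 in untopped roots and 3.07 and 0.0982 in untopped leaves. The cellulose synthase A2 gene NITAB039029 had 1.66 and 0.0272 RPKM in untopped roots, where PMT1 had 0.0513 and TN90 0.0234. NITAB091058 instead set PMT3 apart from TN90, with 1.98 RPKM in PMT2, 0.0481 in PMT3, 0.138 in PMT1 and 2.90 in TN90. The others of the 10 highest were NITAB016533 (a DNA repair gene), the PR-1 gene NITAB084573, the defensin gene NITAB030906, the rhamnosyltransferase gene NITAB039957 and the unannotated NITAB068561 and NITAB084273. In untopped roots their log2 ratios ran from 1.47 to 2.79.

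Among the 17 lower genes, NITAB011589 had 0.0127 RPKM in untopped PMT2 roots and 1.47 in PMT3, and 1.12 and 1.23 in untopped and topped PMT3 leaves. It is listed at 0 in untopped TN90 and PMT1 roots. NITAB010988 had 0.0141 and 1.10 RPKM in untopped roots and 0.0882 in TN90. For these 2 genes PMT3 was the line that differed from TN90. NITAB080944, annotated as a HAD-type hydrolase, went the other way, with 0.0298 RPKM in PMT2, 0.0190 in PMT1, 1.52 in PMT3 and 3.87 in TN90. The CACTA transposon gene NITAB042152 and NITAB081654, with 0.177 and 1.55 RPKM, followed. NITAB062516, NITAB049585, NITAB009240, NITAB000140 and the DnaJ gene NITAB040992 completed the 10 lowest, with log2 ratios in untopped roots from -2.46 to -1.51.

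**Figure D5:**
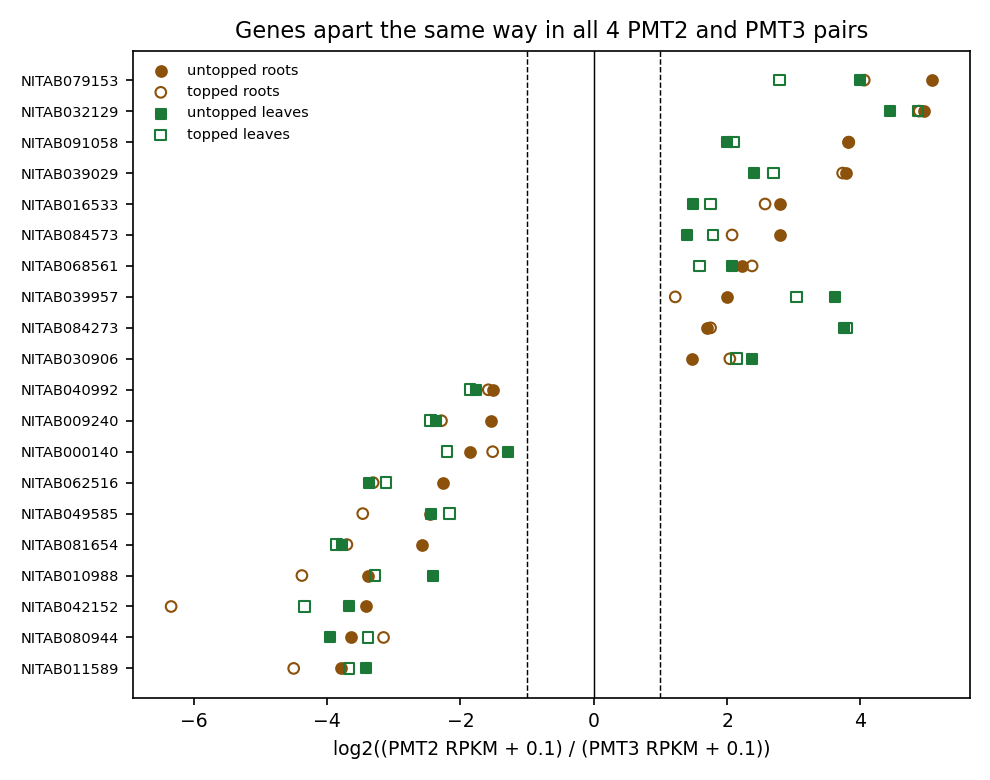
Log2 ratio of PMT2 to PMT3 (x axis) for the 10 genes highest and the 10 lowest in PMT2 by mean absolute log2 ratio among those at least 2-fold apart the same way in all 4 pairs. Circles are roots and squares are leaves, filled for untopped and open for topped plants. All 80 points lie beyond the dashed lines at 2-fold.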

How the data were processed

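Total RNA of leaves and roots was sequenced as paired reads from stranded libraries. The authors mapped reads with CLC Genomics Workbench 11.0.1 and RNA-Seq Analysis 2.16 (similarity 0.95, length fraction 0.95, up to 10 hits per read) to an updated tobacco reference. The authors chose genes by edgeR's exact test (p of at most 0.05, at least 2-fold) and deposited RPKM of 2075 genes as means of 16 groups. They also deposited, per library, a read count and the percent of reads mapped and of mapped reads in genes. Without gene-level counts a count test could not be run, and only the read total of each library gives the depth of an RPKM.

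From the RPKM, log2 ratios were computed with a pseudocount of 0.1 for genes of at least 1 RPKM in either group. Folds on this scale understate the change of low genes. No p-value was computed from group means. Library percentages and log10 read counts were compared by two-sided exact permutation tests of the difference of means, with Benjamini-Hochberg adjustment over 3 measures. The titles carry plant numbers, but library rows carry none, so p-values measure the spread between libraries.

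Genes named were the study's 35 alkaloid candidates, the 10 highest and 10 lowest ratios among genes of at least 5 RPKM in either group, up to 4 members of each list by absolute ratio, and up to 10 genes each way among those apart in all 4 pairs. The 40 lists came from the study's families and from annotation terms. The members and lists were chosen with earlier results of these data known. 0 of the gene identifiers were found in the RefSeq gene table, so no coordinates are given. Coding sequences came from the study's supplement, were ended at the first stop codon in frame and aligned without gaps. The steps were tested on simulated data. Statistics used scipy 1.17.1, tables pandas 2.3.3 and numpy 2.4.6, and plots matplotlib 3.10.9, all under Python 3.11.15. Alternatives were other pseudocounts, RPKM minimums, folds, centring and, for libraries, medians, weights and leaving out each library. A topped PMT2 sample with conflicting tissue labels was left out of the groups.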

Additional observations from a re-analysis of the deposited data

Results flagged for a closer look

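The most deeply sequenced library of untopped PMT2 roots, with 138184962 reads, lay far from the other 4 of its group, the next of which had 46396138. This gap of 0.837 of the range, over a critical value of 0.71, was taken on raw reads. On the log10 scale used for the permutation test these libraries had 8.14 and 7.67, and the gap was not tested there. In untopped PMT3 roots, 1 of 4 libraries had 86.34% of its reads mapped, while the next had 81.63%. Its gap to the others was 0.831 of the range of the group, just over the critical value of 0.829. Of the 6 combinations of group and measure tested, these were the 2 that stood apart, and chance alone sets apart about 1 in 20 groups.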

How the results depend on the processing

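No paired analysis was possible because the gene columns are group means and the library rows carry no replicate number, so no replicate block could be fitted. The 852 genes higher and 182 lower in PMT2 became 353 and 500 when ratios were centred on their median, 565 and 119 with a minimum of 5 RPKM and 228 and 42 with a fold of at least 4. With a fold of at least 1.5, 305 genes were lower. The other settings tried left both counts within 1.5 times. The median log2 ratio was 0.64 with a pseudocount of 1 and between 0.76 and 0.85 under the other 3 settings. The 76 genes apart in all 4 pairs (59 higher, 17 lower) became 43 (29 and 14) with at least 1 RPKM in every pair. With each pair centred, 50 genes were apart (25 and 25). Of these, 22 higher and 16 lower ones were among the 76, and the rest were not. Of 163 named genes, 30 fell under 2-fold when centred and 13 with a pseudocount of 1. Centring changed the sign of 7 named genes, 4 of PMT and 3 of SPDS, all of them within 2-fold.

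Leaving out 1 library at a time, the difference in percent mapped (PMT2 minus PMT3) ranged from 1.20 to 3.27 points, that in percent of mapped reads in genes from -9.03 to -5.41 and that in log10 read count from -0.43 to -0.26. The exact permutation p stayed between 0.057 and 0.49. Gene values rest on group means, and the libraries differ up to 5-fold in depth, so no single library's weight on a gene could be checked.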
